A study of Mus musculus with 12 samples.

Results

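RNA of insulin-like growth factor 1 (Igf1), of its receptor (Igf1r) and of the binding proteins Igfbp2 to Igfbp7 was measured by RNA-seq in mouse embryonic fibroblasts (MEFs), cultured connective tissue cells of the embryo. The 8 genes were taken by symbol from a deposited table of 54532 genes. The set was chosen with earlier results of these data known. The study crossed genotype with heat in 12 libraries, 3 for each of 4 groups. The groups were CHIP-KO cells after heat, CHIP-KO cells without heat, wild-type (WT) cells after heat and WT cells without heat, and heat meant 1 hour at 43 °C. CHIP-KO cells lack CHIP, a ubiquitin ligase encoded by Stub1 that works with the chaperones Hsp70 and Hsp90. The series title links CHIP to heat stress and to the ataxia SCA48. Strain, passage, immortalization, the knockout allele, any recovery time after heat and whether the MEF cultures came from littermates were not given in the sources used here.

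IGF1 is a secreted growth factor that acts through the receptor tyrosine kinase IGF1R, which recruits IRS adaptors and drives PI3 kinase, AKT and mTOR signalling. The IGF binding proteins are secreted as well. They hold IGFs away from the receptor, carry them, or release them when proteases cut the binding protein, and in fibroblast cultures they set how much free IGF the cells see. IGFBP1 to IGFBP6 bind IGFs tightly, whereas IGFBP7 is a relative with low affinity. CHIP is known to mark the insulin receptor, the closest relative of IGF1R, for turnover, a step at the protein level that RNA does not measure.

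Levels are given in FPKM, fragments per kilobase of gene length and per unit of library size, so that genes can be set beside each other within a library. Fold changes are differences of log2(FPKM + 1), a scale that understates changes of genes near or below 1 FPKM. Adjusted p values come from limma, with the Benjamini-Hochberg method applied over the 13023 genes that had at least 1 FPKM in at least 3 libraries, and a gene was called at an adjusted p under 0.05. The libraries held 15591924 to 26954112 fragments. Stub1 stood at 1.08 ± 0.0886 FPKM in heated and 0.971 ± 0.229 FPKM in unheated CHIP-KO cells, against 55.4 ± 2.25 FPKM in heated and 61.7 ± 3.63 FPKM in unheated WT cells (SD, n = 3 each), as the genotype labels say. The 2 WT libraries numbered 1 stood apart, with limma library weights of 0.165 (heated) and 0.192 (unheated) where the others had 0.439 to 5.04. Results that change without them are given with both values. Nothing in the labels says that the 3 libraries per group are separate cultures. All p values therefore measure the spread among these samples alone, and that spread may be technical. How many cell lines or embryos each genotype came from was not given either. Differences between CHIP-KO and WT therefore cannot be told apart from differences between lines, embryos or passages.

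Of 15 fibroblast markers, 13 averaged at least 1 FPKM in both CHIP-KO groups and 11 in both WT groups. Their summed level ran from 3571 to 3771 FPKM in heated and from 3207 to 3382 FPKM in unheated CHIP-KO libraries, against 2102 to 2434 FPKM in heated and 1606 to 2019 FPKM in unheated WT libraries. Vimentin (Vim) and collagen I (Col1a1) were high in each group, whereas Dcn, Thy1, Lum and Fap all averaged under 0.1 FPKM in both WT groups. Lum and Fap also averaged under 0.1 FPKM in both CHIP-KO groups. Dcn and Thy1 are widely used fibroblast markers, and they averaged 1.35 and 8.73 FPKM in heated and 1.31 and 8.28 FPKM in unheated CHIP-KO cells. S100a4 ran the other way, at 11.6 and 6.68 FPKM in heated and unheated CHIP-KO cells, against 23.1 and 17.8 FPKM in heated and unheated WT cells. Vim averaged 492.4 FPKM in CHIP-KO and 599.4 FPKM in WT without heat. The macrophage markers Adgre1 and Tyrobp were at 0 in all 12 libraries. Of the 10 macrophage markers, 2 averaged at least 1 FPKM in each group (Cd68 and Cd14), and the list summed to 10.3 to 12.03 FPKM in heated and 6.16 to 7.17 FPKM in unheated CHIP-KO libraries, against 15.7 to 17.7 FPKM in heated and 6.30 to 6.56 FPKM in unheated WT libraries. The 8 endothelial markers summed to at most 0.774 FPKM in any library. Smooth muscle and pericyte markers, mostly Acta2, summed to 81.6 to 95.6 FPKM in heated and 84.02 to 87.3 FPKM in unheated CHIP-KO libraries, against 60.0 to 81.6 FPKM in heated and 35.8 to 43.9 FPKM in unheated WT libraries. Mesothelial markers, nearly all Msln and Krt19, summed to 51.0 to 52.0 FPKM in heated and 36.6 to 41.5 FPKM in unheated CHIP-KO libraries, against 8.82 to 10.3 FPKM in heated and 42.1 to 46.3 FPKM in unheated WT libraries. Epithelial, skeletal muscle and adipocyte lists stayed at or below 4.56 FPKM in every library. The summed fibroblast level, mostly Col1a1 and Vim (with Col1a2 in CHIP-KO), was thus highest in CHIP-KO, lower in heated WT and lowest in unheated WT. Igfbp4 showed that order as well, but not all markers of the list did. Col3a1, Pdgfrb and Prrx1 averaged 140.7, 42.7 and 38.7 FPKM in heated WT, above every other group. The mesothelial level was lowest where Igfbp2 was highest. The part of these markers in the results was not tested. In bulk RNA, fewer cells of a type and less RNA per cell cannot be told apart.

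The 8 genes lay at the same positions in GENCODE M21 as in the deposited table, on GRCm38. Igf1 (ENSMUSG00000020053) spans chr10:87858265-87937042 on the plus strand and Igf1r (ENSMUSG00000005533) chr7:67952827-68233668, also plus. Igfbp2 (ENSMUSG00000039323, chr1:72824503-72852474, plus) and Igfbp5 (ENSMUSG00000026185, chr1:72857932-72874884, minus) are neighbours that point at each other, with 5457 bases between their ends. Igfbp3 (ENSMUSG00000020427, chr11:7206086-7213923, minus) and Igfbp4 (ENSMUSG00000017493, chr11:99041244-99054392, plus) share a chromosome but lie far apart. Igfbp6 (ENSMUSG00000023046) is at chr15:102144362-102149511, plus, and Igfbp7 (ENSMUSG00000036256) at chr5:77349240-77408041, minus. Igf1 overlaps the antisense gene Igf1os, which had 0 to 4 fragments per group. Igfbp7 overlaps the antisense gene Gm34648, with 0 to 12 fragments per group, and Polr2b by 85 bases. Since strand use in counting was not stated, reads of these genes and their antisense partners cannot be told apart.

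The 4 promoters below are shown because these genes moved most: Igfbp3, Igfbp4 and Igfbp6 were higher in CHIP-KO cells, and Igfbp2 changed with heat in WT. Sequences are from RefSeq on GRCm38.p6 and run 5′ to 3′ from 250 bases before to 50 bases after the annotated start, on the gene's strand. They are Igfbp2 at chr1:72824230-72824529 (plus), Igfbp3 at chr11:7213874-7214173 (minus), Igfbp4 at chr11:99040994-99041293 (plus) and Igfbp6 at chr15:102143936-102144235 (plus). Capitals mark GC boxes (GGGCGG or CCGCCC) and TATA boxes (TATAAA or TTTATA).
Igfbp2: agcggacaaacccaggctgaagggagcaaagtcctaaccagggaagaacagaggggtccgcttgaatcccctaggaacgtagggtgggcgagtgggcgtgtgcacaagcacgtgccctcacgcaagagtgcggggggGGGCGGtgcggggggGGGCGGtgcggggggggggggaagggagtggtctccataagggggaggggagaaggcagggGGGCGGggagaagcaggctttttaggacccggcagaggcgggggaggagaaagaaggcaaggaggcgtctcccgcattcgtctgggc
Igfbp3: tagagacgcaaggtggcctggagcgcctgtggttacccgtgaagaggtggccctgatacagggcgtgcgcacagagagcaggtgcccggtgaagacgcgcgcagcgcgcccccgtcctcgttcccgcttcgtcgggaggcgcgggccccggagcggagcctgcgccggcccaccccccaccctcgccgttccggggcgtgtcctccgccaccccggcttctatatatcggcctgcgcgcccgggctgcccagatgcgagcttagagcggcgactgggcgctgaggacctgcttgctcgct
Igfbp4: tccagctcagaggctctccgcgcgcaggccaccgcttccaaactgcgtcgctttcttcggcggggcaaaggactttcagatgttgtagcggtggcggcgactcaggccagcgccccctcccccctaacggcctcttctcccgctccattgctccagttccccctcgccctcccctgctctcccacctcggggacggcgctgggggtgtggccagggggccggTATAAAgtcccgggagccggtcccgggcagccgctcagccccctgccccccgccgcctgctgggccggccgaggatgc
Igfbp6: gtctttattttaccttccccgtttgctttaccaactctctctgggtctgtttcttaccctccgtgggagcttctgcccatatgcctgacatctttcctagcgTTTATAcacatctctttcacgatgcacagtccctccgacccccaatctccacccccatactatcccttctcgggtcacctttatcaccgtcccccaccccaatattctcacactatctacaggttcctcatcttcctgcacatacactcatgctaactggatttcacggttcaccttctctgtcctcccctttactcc

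The 3 promoters of the genes that were higher in CHIP-KO cells shared none of the motifs searched. Igfbp4 has a TATA box at position -28 from the RefSeq start, the Igfbp6 window has the reverse letters at -148, and the Igfbp3 window has neither these nor a GC box. Only these exact letters were searched. The Igfbp3 window holds a stretch of alternating T and A before its start that the search did not cover. The Igfbp6 window lies wholly before the gene start of the deposited table, so the annotations place that start differently. Igfbp2 has 3 GC boxes in the window shown. A second RefSeq start of Igfbp2, with its window at chr1:72825137-72825436, has none. The GC box letters occur in 35.7% and the TATA box letters in 13.6% of the 32851 RefSeq promoters of this length. An inverted pair of heat shock element units (GAANNTTC or TTCNNGAA, found in 15.1% of promoters) was in none of the 4 windows, nor was the core of the interferon-stimulated response element (ISRE), found in 3.44%. Among the other members, the Igfbp5 window held such a heat shock pair, at -9. The Igfbp3 and Igfbp4 windows were 71.7% and 71.3% G or C and that of Igfbp6 was 49.7%, beside a median of 52.7% over all promoters. A match of letters is a description and does not show that a factor binds there.

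The ligand came first. Igf1 was highest in unheated WT cells, and the other groups were at about the same lower level. Its FPKM in replicates 1 to 3 was 0.597, 0.452 and 0.457 in heated and 0.537, 0.666 and 0.527 in unheated CHIP-KO cells, against 0.507, 0.599 and 0.530 in heated and 1.16, 1.15 and 1.06 in unheated WT cells. Each unheated WT library lay above each of the other 9, and the ranges of the other 3 groups overlapped. Without heat, pooled Igf1 fragments in CHIP-KO were 0.520 times those in WT per depth (95% counting interval 0.459 to 0.589), and heated WT had 0.487 times the unheated level (0.423 to 0.561). Both differences were called, at log2 changes of -0.43 and -0.46 and adjusted p values of 0.00206 and 0.00104 (limma, Benjamini-Hochberg). After heat the genotypes differed by -0.04 on the log2 scale (adjusted p = 0.738), and heat in CHIP-KO gave -0.07 (adjusted p = 0.630). With quantile scaling the change with heat in CHIP-KO was -0.37 and called (adjusted p = 0.0253). Igf1 passed the filter on low values through the unheated WT libraries alone, so a difference of that group was built into its being tested.

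Igf2, the second ligand of this axis and no member of the set, had 0 fragments in each of the 12 libraries. A count of 0 allows up to 3 fragments, which for this gene is 0.0194 to 0.0333 FPKM. Igf2 lies within the annotated readthrough gene Gm49394 on the same strand, which was also at 0. How fragments shared by both were counted is not given in the sources used here, so the zeros do not show that Igf2 RNA was missing.

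Igf1r, the receptor, varied little. It stood at 4.48, 4.60 and 4.34 FPKM in heated and 5.38, 5.76 and 5.85 FPKM in unheated CHIP-KO cells, against 5.51, 3.71 and 4.29 FPKM in heated and 4.48, 4.76 and 4.32 FPKM in unheated WT cells. Unheated CHIP-KO cells lay above heated CHIP-KO and unheated WT cells without overlap, and heated WT replicate 1 reached into their range. Without heat, Igf1r was 0.27 ± 0.10 (SE) higher in CHIP-KO than in WT on the log2 scale, at a limma adjusted p of 0.0383. That call was lost, at adjusted p values of 0.0506 to 0.106, when any unheated library of either genotype was left out, and at 0.0512 without heated CHIP-KO replicate 2. It was also lost without a filter (0.0832), with quantile scaling (0.21, adjusted p = 0.0862) and with the replicate number as a block (0.0546). With heat in CHIP-KO, Igf1r differed by -0.28 ± 0.10 at an adjusted p of 0.0632. That comparison was called without heated WT replicate 1 (adjusted p = 0.00608), without heated WT replicate 2 (0.0256) and without both WT libraries numbered 1 (0.00626). It was called too with the groups alone (0.00712), library weights (0.00147), voom (-0.43, adjusted p = 0.00523) and an equal sum per library (-0.57, adjusted p = 0.00117). After heat the genotypes differed by 0.00 (adjusted p = 0.975), and heat in WT gave -0.02 (adjusted p = 0.893).

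**Figure D1:**
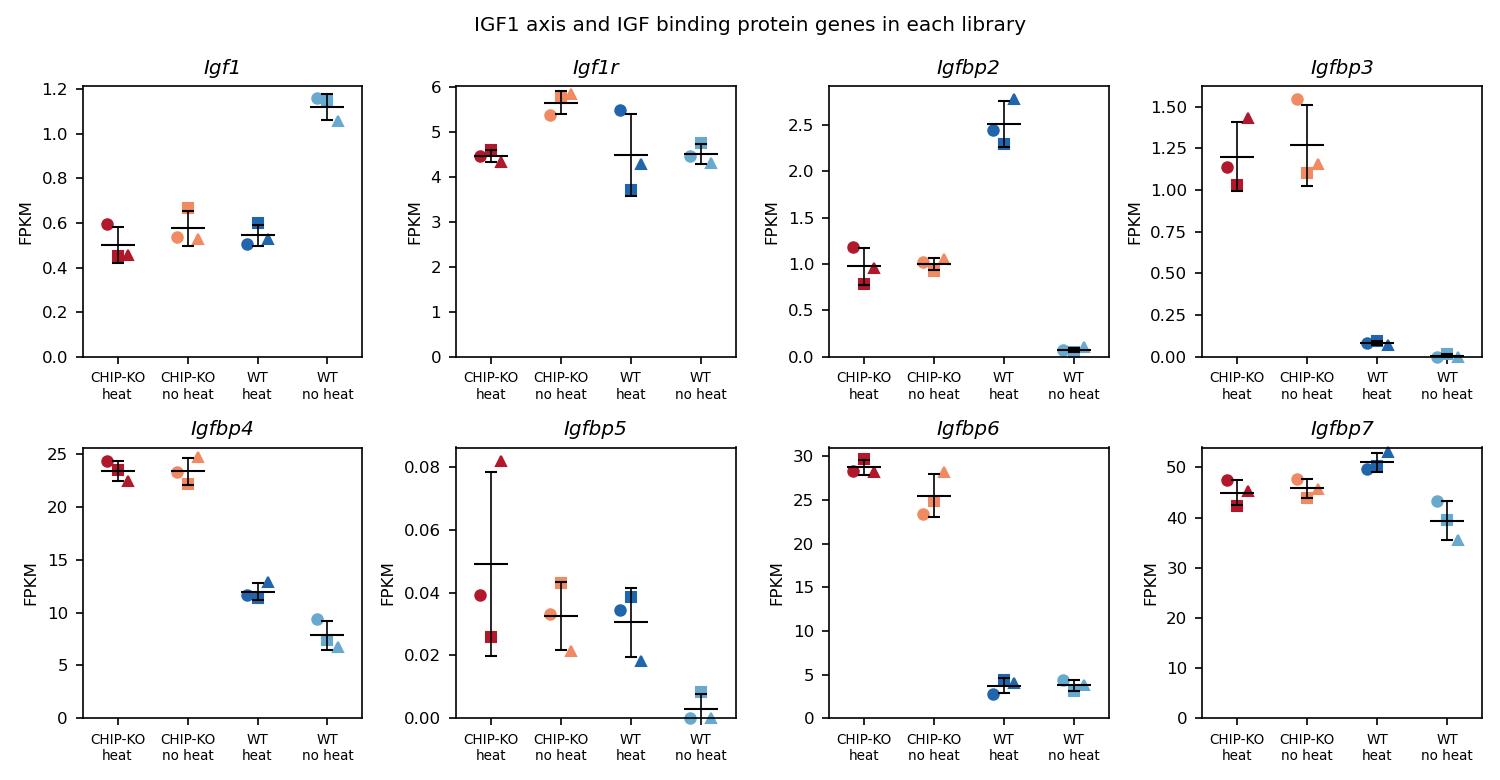
FPKM of the 8 genes (linear axes that start at 0) in each library, by group, with replicates 1 to 3 as separate symbols and the mean and SD drawn beside them. Igf1 stands at 1.06 to 1.16 FPKM in unheated WT and under 0.7 FPKM elsewhere, Igfbp6 and Igfbp4 stand at 22.2 FPKM or more in CHIP-KO and at 12.9 FPKM or less in WT, and Igfbp2 is highest in heated WT.

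Igfbp6, a binding protein that prefers IGF2 to IGF1, showed a clear split by genotype. It stood at 28.3, 29.7 and 28.2 FPKM in heated and 23.4, 24.9 and 28.2 FPKM in unheated CHIP-KO cells. In WT cells it stood at 2.75, 4.39 and 4.03 FPKM after heat and 4.39, 3.12 and 3.77 FPKM without. Every CHIP-KO library was above every WT library. Pooled fragments were 7.76 times higher in CHIP-KO than in WT after heat (95% counting interval 6.76 to 8.95) and 6.83 times higher without heat (5.97 to 7.85). The log2 changes were 2.67 ± 0.13 and 2.48 ± 0.13 (SE), at limma adjusted p values of 4.91e-08 and 6.04e-08. Heat gave 0.17 in CHIP-KO (adjusted p = 0.411), although the heated CHIP-KO libraries lay just above the unheated ones without overlap, and -0.02 in WT (adjusted p = 0.908). In WT the sign of this change turned without the libraries numbered 1, to 0.23 (adjusted p = 0.0565). With limma's library weights the change with heat was called in both genotypes, at 0.21 in CHIP-KO (adjusted p = 0.0349) and 0.20 in WT (adjusted p = 0.0398).

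Igfbp4, an inhibitor of IGF action that is cut by the protease pappalysin-1, was also higher in CHIP-KO cells. Its FPKM was 24.4, 23.5 and 22.5 in heated and 23.3, 22.2 and 24.7 in unheated CHIP-KO cells, and 11.6, 11.4 and 12.9 in heated and 9.40, 7.37 and 6.75 in unheated WT cells. The CHIP-KO groups overlapped each other and lay above heated WT, which lay above unheated WT. CHIP-KO exceeded WT by 0.92 ± 0.10 (SE) after heat and by 1.47 ± 0.10 without heat on the log2 scale, at limma adjusted p values of 1.98e-05 and 2.98e-07. Heat raised Igfbp4 in WT by 0.56 ± 0.10 (adjusted p = 4.63e-04) and gave 0.00 in CHIP-KO (adjusted p = 0.990).

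Igfbp3, the main carrier of IGFs in serum, was detected mostly in CHIP-KO cells and at low levels. It stood at 1.14, 1.03 and 1.43 FPKM in heated and 1.55, 1.10 and 1.16 FPKM in unheated CHIP-KO cells, against 0.0828, 0.0929 and 0.0699 FPKM in heated and 0, 0.0163 and 0 FPKM in unheated WT cells. In fragments, the unheated groups held 298 in CHIP-KO and 1 in WT, a ratio per depth of 224 with a 95% counting interval of 39.9 to 8883. After heat they held 244 and 14 fragments, a ratio of 14.7 (8.58 to 27.2). No CHIP-KO library overlapped a WT library. The log2 changes of 1.02 after heat and 1.17 without heat understate these ratios, since 1 FPKM was added, and had limma adjusted p values of 2.17e-05 and 5.73e-06. Igfbp3 passed the filter through CHIP-KO libraries alone, so a difference by genotype was built into its being tested.

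Heat in WT changed the counts of Igfbp3 to 14 fragments, against 1 without heat, a ratio of 14.5 (2.20 to 611). On the log2 scale this was 0.11 and was not called (adjusted p = 0.428). The call depended on how low values were treated: with a pseudocount of 0.1 it was 0.79 (adjusted p = 0.0436) and with limma's voom on fragments 2.84 (adjusted p = 0.00666). In CHIP-KO, heat gave -0.04 (adjusted p = 0.825).

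Igfbp2, which binds both IGFs and prefers IGF2, had a different order. It stood at 1.19, 0.789 and 0.959 FPKM in heated and 1.02, 0.923 and 1.05 FPKM in unheated CHIP-KO cells, against 2.44, 2.30 and 2.78 FPKM in heated and 0.0687, 0.0553 and 0.102 FPKM in unheated WT cells. Heated WT lay above both CHIP-KO groups, which overlapped, and unheated WT lay below all of them. With heat in WT, Igfbp2 rose by 1.70 ± 0.10 (SE) on the log2 scale (limma adjusted p = 1.44e-07), with 254 fragments after heat and 8 without, a ratio per depth of 32.8 (95% counting interval 16.4 to 76.8). In CHIP-KO, heat gave -0.02 (adjusted p = 0.924). The genotype difference therefore had opposite signs in the 2 treatments: CHIP-KO was lower than WT after heat, by -0.83 (adjusted p = 4.09e-05), and higher without heat, by 0.89 (adjusted p = 1.78e-05). The filter was passed by each heated WT library and 3 CHIP-KO libraries, and by no unheated WT library. Differences of unheated WT from the other groups were thus partly built into Igfbp2 being tested.

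Igfbp7 was the most abundant of these RNAs in each library and changed by small amounts. Its FPKM was 47.4, 42.3 and 45.2 in heated and 47.7, 44.0 and 45.8 in unheated CHIP-KO cells, against 49.7, 50.2 and 53.1 in heated and 43.3, 39.4 and 35.5 in unheated WT cells. Heated WT lay above the other groups without overlap. Heat raised Igfbp7 in WT by 0.37 ± 0.07 (SE; limma adjusted p = 0.00109) and gave -0.03 in CHIP-KO (adjusted p = 0.838). Scaling each library to an equal sum shifted the median over all genes, to -0.21 with heat in WT and to -0.29 with heat in CHIP-KO on the log2 scale. Under it the WT rise was 0.14 and not called (adjusted p = 0.117), and in CHIP-KO Igfbp7 fell by 0.36 (adjusted p = 0.00137), Igfbp4 by 0.32 (0.0125) and Igf1r by 0.57 (0.00117). The falls of Igfbp7 and Igfbp4 were close to the shift of all genes. Without heat, Igfbp7 was 0.22 ± 0.07 higher in CHIP-KO (adjusted p = 0.0272), a call that was lost without unheated WT replicate 2 (0.0583) or 3 (0.105) and without unheated CHIP-KO replicate 1 (0.0964) or 3 (0.0669), and also with the groups alone (0.0593). After heat it differed by -0.18 ± 0.07 between CHIP-KO and WT (adjusted p = 0.0677). That difference was called without unheated WT replicate 1 (0.0293) or 3 (0.0378) and, at -0.20, without both WT libraries numbered 1 (0.0284). It was called too with quantile scaling (-0.24, adjusted p = 0.00721), an equal sum (-0.25, 0.0165), voom (-0.25, 0.0106) and library weights (-0.28, 2.34e-04).

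Igfbp5, known to bind extracellular matrix, stayed below 0.1 FPKM in every library and did not pass the filter. It had 6, 3 and 10 fragments in heated and 5, 7 and 3 in unheated CHIP-KO cells, and 4, 4 and 2 in heated and 0, 1 and 0 in unheated WT cells. The unheated WT libraries lay below all the others. In FPKM, CHIP-KO and WT averaged 0.0327 and 0.00284 without heat (exact two-sided permutation p = 0.1, the smallest that 3 against 3 can give), and 0.0490 and 0.0305 after heat (exact p = 0.4). Heated and unheated cells averaged 0.0490 and 0.0327 FPKM in CHIP-KO (exact p = 0.5) and 0.0305 and 0.00284 FPKM in WT (exact p = 0.1). Its neighbour Igfbp2 reached 2.51 ± 0.249 FPKM in heated WT, where Igfbp5 had 0.0305 ± 0.0108 FPKM (SD, n = 3).

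**Figure D2:**
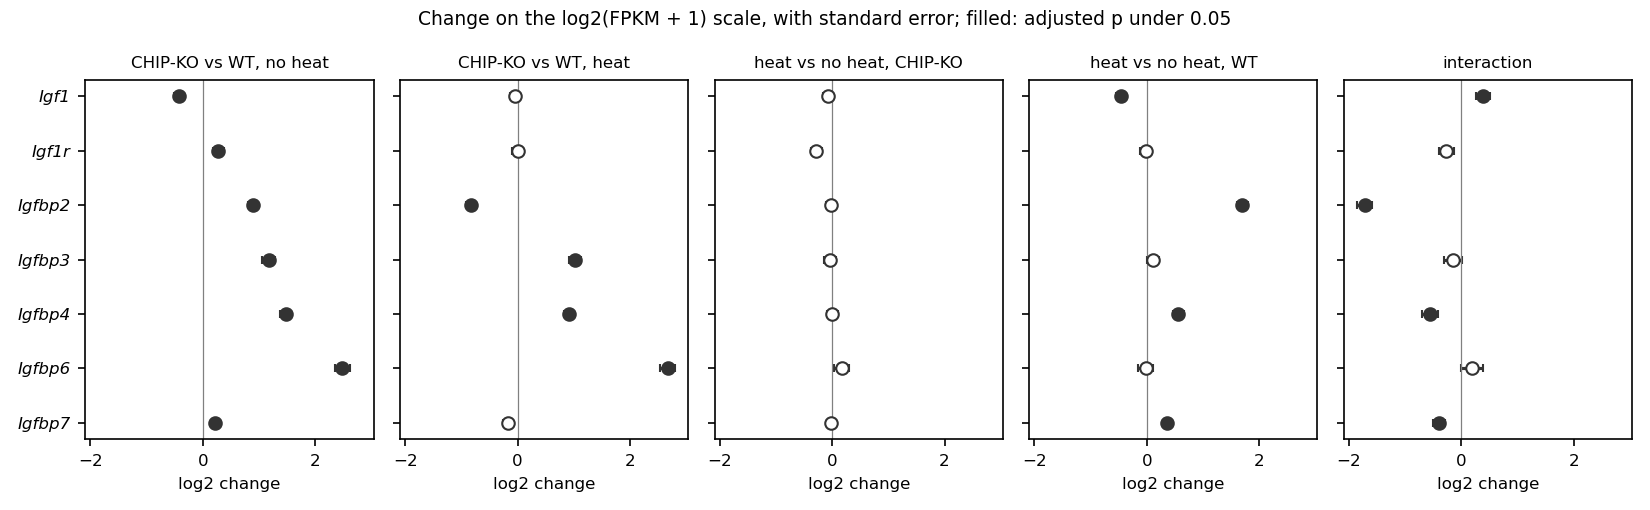
Log2 change (limma, with SE) of the 7 genes tested, on log2(FPKM + 1), in each of the 4 pairwise comparisons and for the interaction. The interaction is the change with heat in CHIP-KO minus that in WT. Igfbp3, Igfbp4 and Igfbp6 are above 0 for CHIP-KO against WT in both treatments, Igfbp2 is above 0 without heat and below 0 after heat, and the values for heat in CHIP-KO lie between -0.28 and 0.17.

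Counted over the 7 members that passed the filter, 7 were called between CHIP-KO and WT without heat, 6 higher and 1 lower (Igf1), where 48.5% of all genes tested were called, 23.9% higher and 24.5% lower. After heat 4 were called, 3 higher (Igfbp3, Igfbp4 and Igfbp6) and 1 lower (Igfbp2), where the share over all genes was 42.4%, 23.3% higher and 19.1% lower. With heat in WT 4 were called, 3 higher (Igfbp2, Igfbp4 and Igfbp7) and 1 lower (Igf1), beside 58.7% of all genes, 28.1% higher and 30.5% lower. With heat in CHIP-KO none of the 7 was called by limma, beside 20.0% of all genes (8.65% higher and 11.4% lower), and Igf1r had an unadjusted p under 0.05 (0.0141). That count was 3 with an equal sum per library, where 567 of all 13023 genes were higher and 8158 lower. With library weights it was 2 (2926 genes higher and 3275 lower). It was 1 with quantile scaling (973 and 1813), the groups alone (1830 and 2213) and voom (905 and 3019). Leaving out heated WT replicate 1 or 2 also gave 1 (1445 and 1957 of 12805 genes, and 1147 and 1524 of 12840). The filter shaped which members could be counted, and these comparisons share groups, so the counts are descriptions. The groups did not overlap for 7 members between genotypes without heat (61.2% of all genes) and for 5 after heat (50.4%). They did not overlap for 5 members with heat in WT (60.4%) and for 2 in CHIP-KO (48.7%).

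Whether heat acted differently in the genotypes was asked by the interaction, the log2 change with heat in CHIP-KO minus that in WT. It was called for 4 of the 7 members, 1 positive and 3 negative, where 35.2% of all genes tested were called, 17.9% positive and 17.3% negative. For Igfbp2 the heat change was -0.02 in CHIP-KO and 1.70 in WT, a difference of -1.72 ± 0.14 (SE; limma adjusted p = 5.44e-06). For Igfbp4 it was 0.00 in CHIP-KO and 0.56 in WT, a difference of -0.56 ± 0.14 (adjusted p = 0.00844). For Igfbp7 it was -0.03 in CHIP-KO and 0.37 in WT, a difference of -0.39 ± 0.10 (adjusted p = 0.0112). In these binding proteins heat raised the level in WT, and the CHIP-KO values with and without heat overlapped. For Igf1 the heat change was -0.07 in CHIP-KO and -0.46 in WT, a difference of 0.39 ± 0.12 (adjusted p = 0.0331). Igf1 passed the filter through unheated WT libraries alone, so this difference was partly built into its being tested. The Igf1 call was lost, at adjusted p values of 0.0603 to 0.0733, without heated WT replicate 3, unheated CHIP-KO replicate 1 or 3, heated CHIP-KO replicate 1, unheated WT replicate 1 or 2, or both WT libraries numbered 1. It was also lost with a pseudocount of 0.1 (0.75, adjusted p = 0.0533) and with the replicate number as a block (adjusted p = 0.0511). The interaction was not called for Igf1r (-0.27, adjusted p = 0.157), Igfbp3 (-0.15, adjusted p = 0.486) or Igfbp6 (0.19, adjusted p = 0.467). Igf1r was called without heated WT replicate 2 (-0.37, adjusted p = 0.0292), and Igfbp3 with voom on fragments (-3.01, adjusted p = 0.0101).

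**Figure D3:**
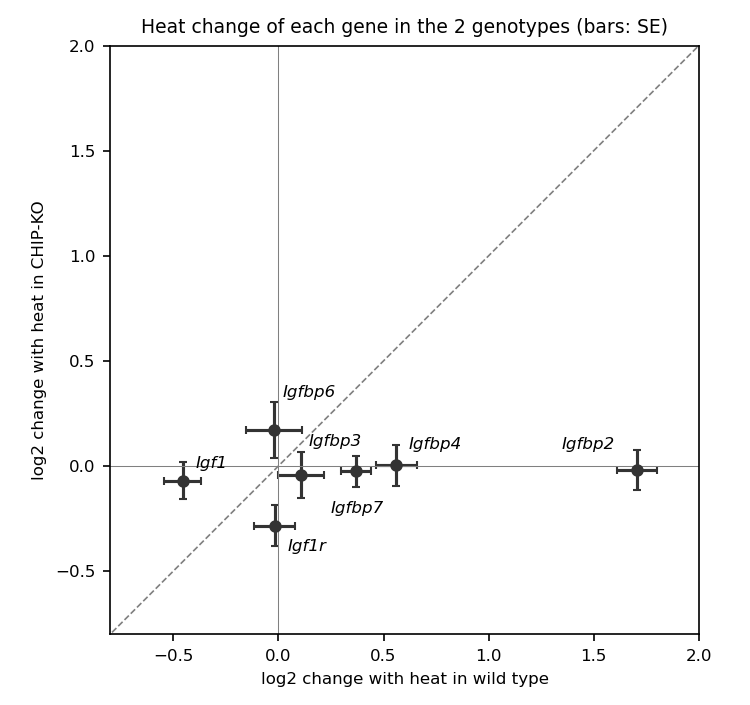
Log2 change with heat in CHIP-KO (vertical axis) against that in WT (horizontal axis) for the 7 genes tested, with SE bars and a dashed line where both would be equal. Igfbp2, Igfbp4 and Igfbp7 lie to the right of the line near 0 on the vertical axis, and Igf1 lies to its left.

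Because FPKM is per length, the binding protein levels could be summed within a library. The summed FPKM of Igfbp2 to Igfbp7 was 102, 97.3 and 98.4 in heated and 97.1, 93.1 and 101 in unheated CHIP-KO cells, against 66.6, 68.4 and 72.9 in heated and 57.1, 50.01 and 46.1 in unheated WT cells. Means were 99.4 ± 2.69 and 97.0 ± 3.93 FPKM in CHIP-KO and 69.3 ± 3.23 and 51.1 ± 5.56 FPKM in WT, heated before unheated in each (SD, n = 3). The CHIP-KO groups overlapped, and both lay above heated WT, which lay above unheated WT. By exact two-sided permutation, p was 0.1 for each genotype comparison and for heat in WT, the smallest p possible with 3 against 3, and 0.4 for heat in CHIP-KO. With an equal sum per library the mean difference with heat was -20.7 FPKM in CHIP-KO (2.37 as deposited) and 8.53 FPKM in WT (18.2 as deposited).

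The make-up of the sum differed by genotype as well. Igfbp7 gave 45.3% ± 1.53 of it in heated and 47.3% ± 1.87 in unheated CHIP-KO cells, against 73.6% ± 0.876 in heated and 77.2% ± 1.57 in unheated WT cells (SD, n = 3 each). Igfbp6 gave 28.9% and 26.3% in heated and unheated CHIP-KO cells, against 5.36% and 7.37% in heated and unheated WT cells. Igfbp4 gave 23.6% and 24.1% in heated and unheated CHIP-KO cells, against 17.2% and 15.3% in heated and unheated WT cells. Igfbp2 was largest in heated WT, at 3.61% of the sum, and gave 0.981% and 1.03% in heated and unheated CHIP-KO cells and 0.151% in unheated WT cells. Igfbp3 and Igfbp5 together added little in any group. The genotype differences in the shares of Igfbp4, Igfbp6 and Igfbp7 had no overlap in either treatment (exact p = 0.1 each).

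**Figure D4:**
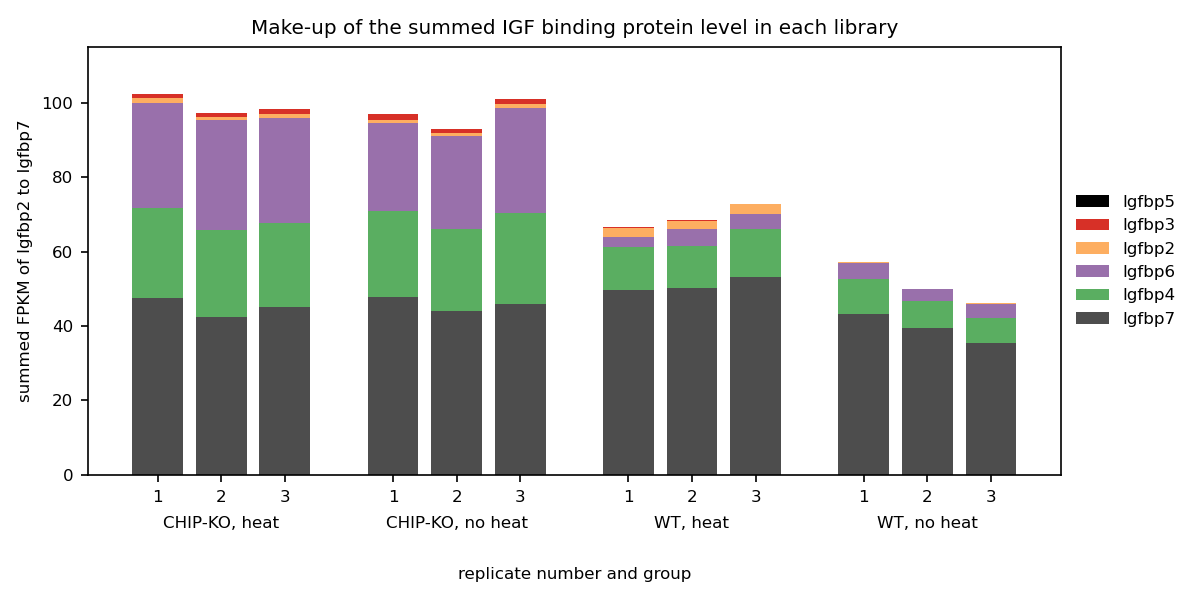
Summed FPKM of Igfbp2 to Igfbp7 in each library (stacked bars from 0, 1 colour per gene), by group and replicate. Bars reach 93.1 to 102 FPKM in CHIP-KO and 46.1 to 72.9 FPKM in WT, and the difference lies mostly in the Igfbp6 and Igfbp4 layers.

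Among proteases that cut binding proteins and their inhibitors, 7 of 12 passed the filter. Between CHIP-KO and WT, 4 were higher and 3 lower without heat, and 3 were higher and 3 lower after heat. With heat, none rose and 1 fell in CHIP-KO, and 4 rose and 2 fell in WT. Over all genes tested, 48.5% were called by genotype without heat, 42.4% after heat, and 20.0% and 58.7% with heat in CHIP-KO and WT. Mmp2, a matrix metalloprotease that can cut several binding proteins, averaged 90.3 ± 0.707 FPKM in heated CHIP-KO and 5.98 ± 0.486 FPKM in heated WT cells (log2 change 3.71, limma adjusted p = 1.33e-11). Without heat it averaged 83.5 ± 4.28 FPKM in CHIP-KO and 2.38 ± 0.254 FPKM in WT (4.64, adjusted p = 2.53e-12). Htra1, a serine protease, averaged 89.6 ± 2.16 FPKM in heated CHIP-KO and 20.6 ± 2.31 FPKM in heated WT cells (2.08, adjusted p = 4.91e-08). Plat, the tissue plasminogen activator, averaged 28.3 ± 0.881 FPKM in unheated CHIP-KO and 7.42 ± 0.324 FPKM in unheated WT cells (1.80, adjusted p = 3.19e-10). Htra3 and Adamts1 went the other way, at 0.885 and 23.6 FPKM in heated CHIP-KO against 3.82 and 44.6 FPKM in heated WT cells (-1.36 and -0.89, adjusted p = 4.71e-07 and 4.16e-06). These proteases were named for the size of their changes in each direction, so their directions say nothing about the list. Pappa (pappalysin-1) failed the filter. It averaged 0.614 and 0.607 FPKM in heated and unheated CHIP-KO cells, and 0.253 and 0.0609 FPKM in heated and unheated WT cells. Whether the binding proteins were cut was not measured.

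Of 7 other ligands, receptors and carriers, 4 passed the filter. Between CHIP-KO and WT 3 were higher without heat and 1 was lower after heat. With heat 1 rose in CHIP-KO and 4 rose in WT. The shares called over all genes were 48.5% and 42.4% by genotype without and after heat, and 20.0% and 58.7% with heat in CHIP-KO and WT. Ghr, the growth hormone receptor, which drives Igf1 transcription in liver, averaged 13.1 ± 0.554 FPKM in unheated CHIP-KO and 4.58 ± 0.552 FPKM in unheated WT cells (log2 change 1.34, limma adjusted p = 1.17e-07). It rose with heat in WT, to 10.3 ± 0.648 FPKM (1.02, adjusted p = 1.44e-06), and its interaction was -1.26 (adjusted p = 1.27e-05). Ghr thus had its lowest level in unheated WT, where Igf1 had its highest. Lrp1, an endocytic receptor that also takes up IGFBP3, rose with heat to 130.3 ± 11.6 FPKM in CHIP-KO, against 78.3 ± 8.68 FPKM unheated (0.73, adjusted p = 4.85e-04), and to 116.0 ± 8.005 FPKM in WT, against 58.4 ± 4.28 FPKM unheated (0.98, adjusted p = 7.45e-06). Igf2r, the receptor that clears IGF2, was lower in CHIP-KO than in WT after heat, at 38.8 ± 1.46 against 51.5 ± 4.62 FPKM (-0.40, adjusted p = 0.00160).

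Downstream of the receptor, 32 of 34 adaptors and kinases passed the filter. Between CHIP-KO and WT 11 were higher and 7 lower without heat, and 5 were higher and 10 lower after heat. With heat 1 rose and 3 fell in CHIP-KO, and 12 rose and 6 fell in WT. Over all genes, 48.5% were called between genotypes without heat and 42.4% after heat, and 20.0% with heat in CHIP-KO and 58.7% in WT, so the counts show nothing particular to the list. The list's median log2 change was -0.02 with heat in CHIP-KO and 0.10 with heat in WT, beside 0.00 and -0.02 over all genes tested. The adaptors Irs1 and Irs2 rose with heat in WT, to 12.8 ± 6.13 and 16.3 ± 6.44 FPKM, against 3.17 ± 0.502 and 6.07 ± 0.373 FPKM unheated (limma adjusted p = 2.75e-04 and 8.17e-04). The heated libraries spread widely in both. Pik3cb, a catalytic subunit of PI3 kinase, fell with heat in WT to 4.83 ± 1.25 FPKM, against 12.4 ± 1.38 FPKM unheated (-1.21, adjusted p = 1.73e-05). Its interaction was 1.39 (adjusted p = 2.01e-04). Pik3r3, a regulatory subunit, was lower in CHIP-KO than in WT, at 8.79 ± 1.33 against 25.4 ± 5.37 FPKM after heat (-1.42, adjusted p = 5.05e-06) and at 7.42 ± 0.126 against 14.2 ± 0.534 FPKM without (-0.86, adjusted p = 2.00e-04).

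Genes outside the family that carry an IGFBP domain include the CCN proteins, secreted matrix-associated factors. Of the 10 measured, 7 passed the filter, and with heat 2 rose in CHIP-KO and 5 rose and 2 fell in WT, beside 20.0% of all genes called in CHIP-KO and 58.7% in WT. Nov (CCN3) behaved like Igfbp2 in WT: it rose with heat to 101.0 ± 7.16 FPKM, against 16.05 ± 1.02 FPKM unheated (log2 change 2.58, limma adjusted p = 1.27e-09), and its interaction was -2.78 (adjusted p = 9.57e-08). Cyr61 (CCN1) rose with heat in both genotypes, to 502.9 ± 169.9 FPKM in CHIP-KO against 114.3 ± 5.42 FPKM unheated, and to 378.2 ± 115.4 FPKM in WT against 101.4 ± 6.30 FPKM unheated (adjusted p = 2.20e-04 and 4.49e-05). Wisp2 (CCN5) was higher in CHIP-KO than in WT without heat, at 53.1 ± 3.93 against 15.8 ± 0.828 FPKM (1.69, adjusted p = 1.56e-09). After heat it averaged 54.6 FPKM in CHIP-KO and 53.0 FPKM in WT, and its interaction was -1.65 (adjusted p = 4.37e-07). Of the IGF2 mRNA-binding proteins, 3 of 3 passed the filter, and 2 were lower in CHIP-KO in each treatment, Igf2bp2 and Igf2bp3 (19.1% of all genes were lower after heat and 24.5% without). Igf2bp3 averaged 1.96 ± 0.0951 FPKM in heated CHIP-KO and 5.77 ± 0.514 FPKM in heated WT cells (-1.19, adjusted p = 1.43e-07), and 2.20 ± 0.162 FPKM in unheated CHIP-KO and 5.93 ± 0.182 FPKM in unheated WT cells (-1.11, adjusted p = 1.74e-07).

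The genes whose log2 values ran most like each member over the 12 libraries were named among 10755 protein-coding genes, by Pearson's r, as a description without a test. Since the libraries fall into 4 groups, r reflects mostly the 4 group means. For Igfbp3 they were Rarres1, Rmdn2 and Hoxc5 (r of 0.997 to 0.993), of which Hoxc5 averaged 4.69 FPKM in heated and 4.66 FPKM in unheated CHIP-KO cells and 0 and 0.0102 FPKM in heated and unheated WT cells. For Igfbp6 they were Gng11, Osbpl9 and Maoa (0.996 to 0.995), and for Igfbp4 Ldhb, Rnf114 and Prkar1b (0.992 to 0.990). For Igfbp2 they were Tef, Ctns and Aebp1 (0.994 to 0.987), each highest in heated WT and lowest in unheated WT. For Igf1 they included Ccdc115 (0.980) and Scly (0.969), both highest in unheated WT. The values were lower for Igf1r, with Tbck, Rab22a and Akap11 (0.948 to 0.944), and for Igfbp7, with Brdt, Fkbp9 and Raet1d (0.933 to 0.921).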

How the data were processed

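Poly(A) RNA of 12 MEF libraries was sequenced, per the labels' protocols, and the authors deposited 1 table of FPKM values with 1 column per library. HISAT2 served as aligner, per the submitters' processing notes. For the aligner version, the counting tool, strand use and annotation, nothing was given in the sources used here. Multiplied by gene length, 100% of values above 0 were whole multiples of what 1 fragment is worth in their library (within 0.01), which gave fragments. Median-of-ratios factors computed from the table were the same in every library (1.01), so the deposited values were already on such a scale. No column was left unmapped (0). Groups and replicate numbers come from the sample titles. Of the 54532 gene IDs, 54409 were in GENCODE M21 and 53499 had the same position there.

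limma 3.58.1 (R 4.3.3) was run on log2(FPKM + 1) of all 12 libraries, with group means and a variance trend. Its two-sided contrasts were heat within genotype, genotype within treatment, and the interaction. Genes had to reach 1 FPKM in at least 3 libraries (13023 genes); Igfbp5 did not and was tested by exact permutation. Fragment ratios are per depth, with exact 95% intervals, and these and the floor of 3 fragments cover counting error only. The limma fit was also run on simulated counts, with far fewer genes changed than were called here. No conclusion is drawn from that run. Plots used Python 3.11.15 and matplotlib 3.10.9.

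The members, gene lists and tests were chosen with earlier results of these data known. Named genes are the members, up to 2 called genes per list, comparison and direction with at least 2 FPKM in the higher group, not all of which are printed, and the 3 genes most like each member. Some genes that this rule names are not reported here. Igf2, Dcn, Thy1 and the other markers printed were named after their values were seen. Alternatives covered the pseudocount, filter, scaling, groups alone, library weights, a replicate block, voom on fragments and libraries left out. Leaving out WT libraries with the genes tested held fixed was added after the data were seen, since Igf1 otherwise failed the filter.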

Additional observations from a re-analysis of the deposited data

Results flagged for a closer look

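The change with heat differed between CHIP-KO and WT cells, by limma's interaction test, for 4 members. The log2 change in CHIP-KO minus that in WT was -1.72 for Igfbp2, -0.56 for Igfbp4, -0.39 for Igfbp7 and 0.39 for Igf1. Igfbp2, Igfbp4 and Igfbp7 stayed called under every alternative that tested them, at adjusted p values of at most 5.59e-05, 0.0247 and 0.0322, whereas Igf1 ranged up to 0.0733. Since Igf1 passed the filter through unheated WT libraries alone, its difference was partly built into its being tested. Groups of 3 are too small for the test of a single value far from its group, so none was run; the 2 WT libraries numbered 1 stand apart by their library weights.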

How the results depend on the processing

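Over the members' log2 changes, 855 values under the alternatives kept their direction and their side of the threshold, 30 lost a call, 25 gained one and 30 changed sign, none of which had been called. Many of the 855 could not change direction. The filters, the groups alone, the block and leaving out a library outside the comparison keep the log2 change as it was. Median-of-ratios factors were 1.01 in every library, so that setting nearly repeats the main fit. The calls of Igfbp3, Igfbp4 and Igfbp6 by genotype in both treatments, and of Igfbp2 by genotype and with heat in WT, held under every alternative that tested them. For Igfbp3 and Igfbp2 this says less. Igfbp3 passed the filter only through CHIP-KO libraries and Igfbp2 through no unheated WT library, so their differences were partly built in. Limiting genes to a mean of at least 5 FPKM left 3 members, by construction, with 2 called for heat in WT, 3 for CHIP-KO against WT without heat, 2 after heat and 2 for the interaction. Of the 7920 genes left, 2011 were higher and 3076 lower with heat in WT. Between CHIP-KO and WT 2019 were higher and 2402 lower without heat, and 2313 and 1449 after heat. The interaction was positive for 2015 and negative for 1403. For heat in CHIP-KO none was called in the main fit. Quantile scaling, the groups alone and voom each called 1, library weights 2 and an equal sum per library 3. The counts over all genes under these settings are given above beside those of the members. Without both WT libraries numbered 1, 1 member was called, where 1954 of 12729 genes were higher and 2413 lower. With the genes held fixed it was also 1, where 2001 of 13023 were higher and 2413 lower. Leaving out 1 library gave 0 to 1. Leaving out 1 library gave 4 to 7 calls for CHIP-KO against WT without heat. It gave 4 without unheated WT replicate 2 (2872 higher and 2859 lower of 12958 genes) or 3 (2899 and 3000 of 12958), where Igf1 failed the filter. With an equal sum the summed binding protein level differed by 8.53 FPKM with heat in WT, -20.7 with heat in CHIP-KO, and 52.8 without and 23.5 after heat between CHIP-KO and WT. Gm23935 held 12.4% to 17.0% of summed FPKM in heated CHIP-KO and 13.2% to 15.2% in heated WT libraries, beside 2.52% to 4.67% in unheated ones. Summed FPKM ran from about 345090 to 359480 in heated and 277700 to 280260 in unheated CHIP-KO libraries. In WT libraries it ran from about 324760 to 347600 heated and 281600 to 290470 unheated. An equal sum therefore lowers heated values relative to unheated ones, and the part of Gm23935 in this was not tested.

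Changes that were not called turned sign as follows, and 2 of the turned values were called (library weights for Igfbp6 in WT, equal sum for Igfbp4 in CHIP-KO). For heat in WT, Igfbp3 was -0.075 with quantile scaling, Igfbp6 was 0.20 with library weights, 0.23 without both WT libraries numbered 1 and -0.12 to 0.14 with 1 library left out (0.074 with the genes held fixed), and Igf1r was -0.14 to 0.088 with 1 left out (0.014 with the genes held fixed). For heat in CHIP-KO, Igfbp4 was -0.0067 with quantile scaling, -0.32 with an equal sum, -0.087 with voom and -0.034 to 0.041 with 1 left out. Igfbp6 was -0.16 with an equal sum, and with 1 left out Igfbp2 was -0.093 to 0.052, Igfbp3 -0.12 to 0.043 and Igfbp7 -0.064 to 0.016. Between CHIP-KO and WT after heat, Igf1r was -0.055 with an equal sum, -0.065 with voom and -0.10 to 0.13 with 1 left out. The interaction of Igfbp6 was -0.063 without both WT libraries numbered 1. Except where stated, the cause was not tested. In their deviations from group means, same-numbered libraries correlated at -0.12 to 0.335, with 2 of 18 pairs over 0.1. Other-numbered libraries correlated at -0.315 to 0.13, with 3 of 36 pairs over 0.1. The 2 same-numbered pairs over 0.1 joined heated CHIP-KO and heated WT, at 0.335 for replicate 1 and 0.231 for replicate 3. Whether the numbers mark a shared batch cannot be told from groups of 3. With the replicate block, Igf1r in CHIP-KO against WT without heat (0.27, adjusted p = 0.0546) and the Igf1 interaction (0.39, adjusted p = 0.0511) lost their calls.

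Depth limits Igfbp5 in each group, Igfbp2 in unheated WT and Igfbp3 in both WT groups, which rest on 10 or fewer fragments per library there.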
